A study of Mus musculus with 6 samples.

Results

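Kruppel-like factors are transcription factors that bind GC-rich DNA and CACCC boxes. The 8 genes described here, Klf2, Klf3, Klf4, Klf6, Klf7, Klf9, Klf10 and Klf13, were taken by name from a table of 27458 genes measured in bone marrow macrophages with and without RKIP. All 8 had a row in the table, and all 8 passed the filter of a mean of at least 1 FPKM, a level scaled for transcript length and library depth. The cells were primary cells from mouse bone marrow, and both groups were treated with macrophage colony-stimulating factor (M-CSF). RNA came from RKIP+/+ mice (WT, 3 libraries) and from RKIP-/- mice (KO, 3 libraries). Strain, age, sex, the design of the deleted allele and any pooling of animals are not given in the sources used here. RKIP, the Raf kinase inhibitor protein, is encoded by Pebp1. The study asked how RKIP bears on macrophage differentiation, and the comparison here gives the levels of the Klf genes in both genotypes.

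Each Klf protein carries a set of zinc fingers at its C-terminal end, and the divergent N-terminal part recruits partner proteins. Klf2, Klf4, Klf6 and Klf7 are mostly described as activators, Klf3 as a repressor that recruits the corepressor CtBP, and Klf9, Klf10 and Klf13 as factors that bind the corepressor Sin3a. In myeloid cells, Klf4 is known for monocyte formation and alternative activation, Klf2 for holding inflammatory activation back, and Klf6 for promoting it.

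The third zinc finger is shown because it belongs to the conserved DNA-binding part that defines the family, where reads of one member could be taken for another. The coding DNA below is from GENCODE M21 transcripts (GRCm38), 63 bases each, with the codons of the 2 cysteines and 2 histidines that hold zinc in capitals. In Klf6 and Klf7 the finger is split by an intron, so their coordinates span it.
Klf2, chr8:72320851-72320913, plus strand: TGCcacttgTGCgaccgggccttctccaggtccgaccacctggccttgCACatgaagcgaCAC
Klf3, chr5:64829084-64829146, plus strand: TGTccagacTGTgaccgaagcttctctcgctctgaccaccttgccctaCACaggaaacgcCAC
Klf4, chr4:55528131-55528193, minus strand: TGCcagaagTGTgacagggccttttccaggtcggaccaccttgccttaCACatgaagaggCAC
Klf6, chr13:5866746-5867277, plus strand: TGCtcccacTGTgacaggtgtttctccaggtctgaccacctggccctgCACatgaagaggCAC
Klf7, chr1:64035719-64042330, minus strand: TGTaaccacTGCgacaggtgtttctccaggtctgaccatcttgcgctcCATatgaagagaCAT
Klf9, chr19:23164790-23164852, plus strand: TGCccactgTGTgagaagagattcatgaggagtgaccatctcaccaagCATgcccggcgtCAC
Klf10, chr15:38295995-38296057, minus strand: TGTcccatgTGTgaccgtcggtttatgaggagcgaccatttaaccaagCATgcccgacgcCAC
Klf13, chr7:63891628-63891690, minus strand: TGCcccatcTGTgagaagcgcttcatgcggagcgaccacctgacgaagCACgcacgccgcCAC
Over the 243 bases that encode all 3 fingers, the 28 pairs of members were 57.2% to 81.1% identical. Klf6 and Klf7 were the closest pair, and Klf2 and Klf4 were 78.2% identical. The 10 pairs among Klf2, Klf3, Klf4, Klf6 and Klf7 were 67.9% to 81.1% identical and the 3 pairs among Klf9, Klf10 and Klf13 were 64.6% to 72.8% identical. The 15 pairs between these sets were 57.2% to 64.6% identical. The longest exact run shared by any 2 members over their longest transcripts was 26 bases. In a search for near copies, no transcript of another gene aligned to any of the 8. It did not align even Klf6 and Klf7 to each other, so it cannot exclude likeness of that degree. Genes that overlap a member in the table had at most 0.109 FPKM on average.

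The labels and libraries were checked first. Pebp1 stood at 39.2, 33.2 and 39.05 FPKM in WT libraries 1 to 3 and was listed at 0 in all 3 KO libraries. Total estimated counts were 53188659 to 55255365 per library in WT and 63607276 to 70059042 in KO. Every KO library was thus deeper than every WT library. The members had 789 to 16951 estimated counts each, about 4 of which stood for 1 fragment. The macrophage gene Csf1r was at 298 ± 2.19 FPKM in WT and 381 ± 15.4 FPKM in KO (SD, n = 3). Cd68 and Lyz2, also macrophage genes, were at 946 and 19286 FPKM in WT and 883 and 16647 FPKM in KO. Of the 12 macrophage genes listed, 3 rose, among them Csf1r, and 7 fell, among them Cd68 and Lyz2. With the length and GC offset, a second fit, Cd68 was higher in KO and Lyz2 did not pass. The libraries also held the stromal collagen RNA of Col1a1, at 429.7 to 512 FPKM. Ly6g, a defining neutrophil gene, was at 0.503 to 0.971 FPKM in WT and listed at 0 in KO.

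Klf3, Klf13, Klf9 and Klf6 rose in the KO, by 1.33-fold, 1.19-fold, 1.27-fold and 1.098-fold. None of the 8 fell. Klf7 and Klf10 had higher means and Klf2 and Klf4 lower means in KO, and none of these 4 passed the test (edgeR quasi-likelihood test, Benjamini-Hochberg adjusted p under 0.05 over 11636 genes). Over all tested genes, 20.3% were higher and 19.4% lower in KO by this test, against 4 and 0 of the 8 members. The median log2 fold change was 0.15 over the members and -0.008 over all tested genes. In bulk RNA, fewer cells of a type and less RNA per cell cannot be told apart. A fold change is KO over WT from the edgeR fit with its own scaling and differs from the ratio of FPKM means. A ± after a log2 fold change is an approximate standard error, worked back from the F statistic.

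**Figure D1:**
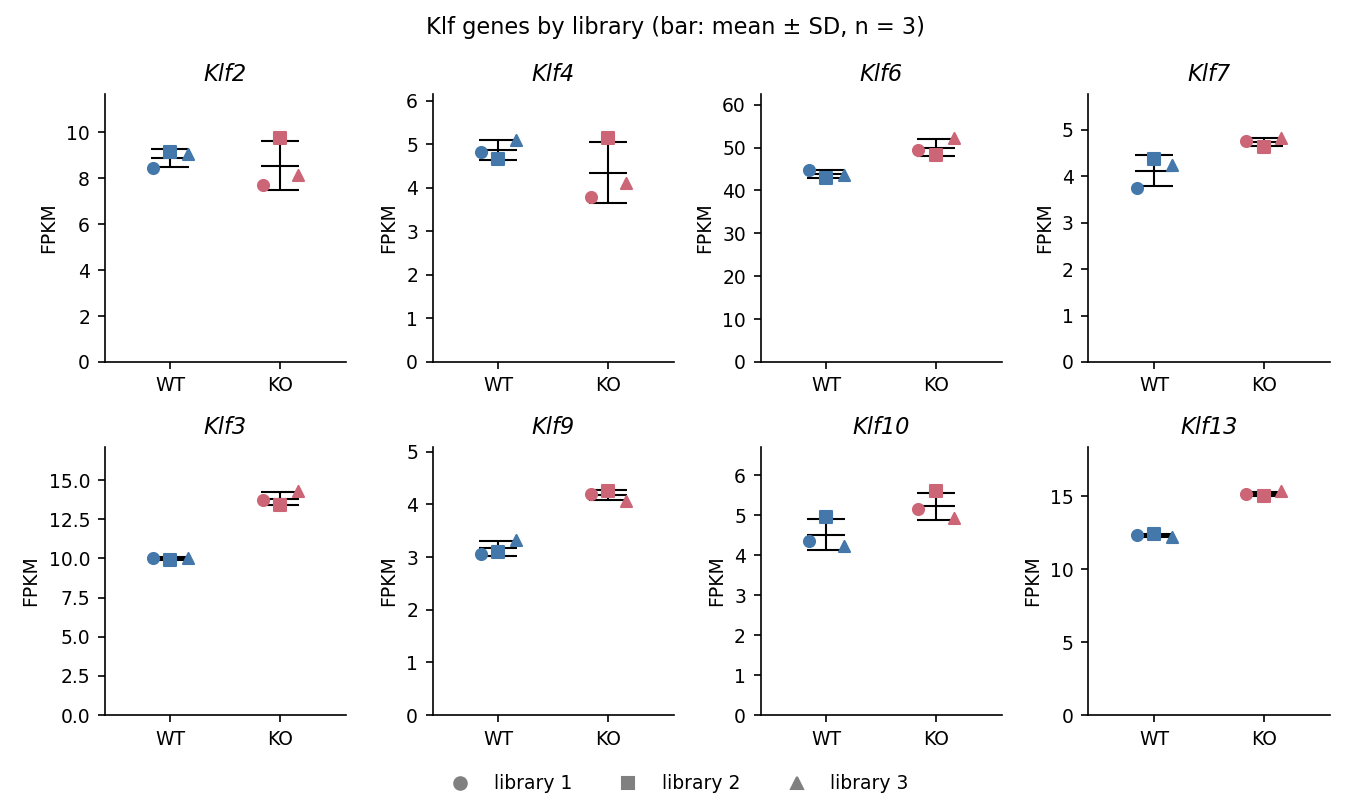
FPKM (vertical axes, from 0) of the 8 Klf genes in WT and KO, with 1 point per library and the mean ± SD as black bars. The 3 KO points of Klf3, Klf6, Klf7, Klf9 and Klf13 lie above the 3 WT points, while those of Klf2, Klf4 and Klf10 overlap with WT.

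Klf3, the CtBP-recruiting repressor known for its part in B cell development and fat tissue, had the largest fold change of the 8. It lies on the plus strand of chromosome 5 (chr5:64803388-64832901), 52.4 Mb from Pebp1. Its level was 10.04, 9.901 and 10.05 FPKM in WT libraries 1 to 3 and 13.8, 13.4 and 14.3 FPKM in KO libraries 1 to 3. Every KO library was above every WT library. On the log2 scale the fold change was 0.41 ± 0.042 (edgeR, adjusted p = 2.46e-05). With an offset for transcript length and GC content it was 0.30 (edgeR, adjusted p = 6.65e-05).

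Klf9, Klf10 and Klf13 belong to the group whose proteins bind Sin3a. Klf9, which glucocorticoids and thyroid hormone induce, had the lowest mean of the 8 in both genotypes. It lies at chr19:23141226-23168134 on the plus strand. It stood at 3.06, 3.103 and 3.33 FPKM in WT libraries 1 to 3 and 4.204, 4.24 and 4.07 FPKM in KO libraries 1 to 3. The groups did not overlap, and the log2 fold change was 0.34 ± 0.073 (edgeR, adjusted p = 0.00306).

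Klf13, known in T cells as a factor that drives the chemokine gene Ccl5, was the second most abundant member (chr7:63886351-63938915, minus strand). Its level was 12.3, 12.4 and 12.2 FPKM in WT libraries 1 to 3 and 15.1, 15.04 and 15.3 FPKM in KO libraries 1 to 3. All KO libraries were above all WT libraries. Its log2 fold change was 0.25 ± 0.038 (edgeR, adjusted p = 0.000388). Ccl5 itself fell 2.27-fold, from 1.64 ± 0.1398 to 0.746 ± 0.237 FPKM (edgeR, adjusted p = 0.00375). With the length and GC offset, Klf9 and Klf13 kept their calls, with values of 0.29 and 0.17 on the log2 scale (edgeR, adjusted p = 0.00994 and 0.00758).

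Klf10, the gene that TGF-beta induces early, lies at chr15:38291463-38300706 on the minus strand. It stood at 4.37, 4.96 and 4.23 FPKM in WT libraries 1 to 3 and 5.16, 5.598 and 4.94 FPKM in KO libraries 1 to 3. WT library 2 was just above the lowest KO library, so the groups overlapped. Its log2 fold change was 0.16, with a 95% interval from -0.021 to 0.34 (edgeR, adjusted p = 0.148).

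Of the group described as activators, Klf6 was the most abundant member in both genotypes (chr13:5861482-5870394, plus strand). It stood at 44.7, 42.96 and 43.7 FPKM in WT libraries 1 to 3 and 49.3, 48.3 and 52.2 FPKM in KO libraries 1 to 3. The groups did not overlap. The log2 fold change was 0.14 ± 0.044 (edgeR, adjusted p = 0.02896). The call ended with the length and GC offset, at a log2 fold change of 0.018 (edgeR, adjusted p = 0.717). It held with an offset for length alone, at 0.14 (edgeR, adjusted p = 0.026). That offset used another length, worked back from counts and FPKM. The call also ended with upper-quartile scaling (0.124) and without WT library 2 (0.107), WT library 3 (0.0729), KO library 1 (0.0769) or KO library 3 (0.0981, all edgeR adjusted p).

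Klf7, a broadly expressed factor best known from neurons, is the closest relative of Klf6 in the finger DNA (chr1:64029447-64121491, minus strand). Its level was 3.75, 4.37 and 4.25 FPKM in WT libraries 1 to 3 and 4.76, 4.64 and 4.82 FPKM in KO libraries 1 to 3. The groups did not overlap, and WT library 1 was the lowest. Its log2 fold change was 0.15 ± 0.068 (edgeR, adjusted p = 0.104). Klf7 has the longest transcript of the 8, 7662 bp. With the length and GC offset its log2 fold change was -0.056 (edgeR, adjusted p = 0.523). With the offset for length alone it was 0.043 (edgeR, adjusted p = 0.649). Without WT library 1, and with no offset, it was 0.083 (edgeR, adjusted p = 0.323).

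Klf2, which holds T cells and endothelium in a resting state, lies at chr8:72319033-72321656 on the plus strand. It stood at 8.44, 9.15 and 9.08 FPKM in WT libraries 1 to 3 and 7.73, 9.74 and 8.16 FPKM in KO libraries 1 to 3. KO library 2 was the highest of all 6 libraries and the other 2 KO libraries were the lowest. The log2 fold change was -0.11, with a 95% interval from -0.31 to 0.089 (edgeR, adjusted p = 0.365).

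Klf4, the monocyte and reprogramming factor, had the same libraries at its extremes (chr4:55527143-55532466, minus strand). Its level was 4.82, 4.66 and 5.101 FPKM in WT libraries 1 to 3 and 3.79, 5.14 and 4.104 FPKM in KO libraries 1 to 3. Again KO library 2 was the highest of the 6 and the other 2 KO libraries lay below all WT libraries. The log2 fold change was -0.22, with a 95% interval from -0.45 to 0.019 (edgeR, adjusted p = 0.132). Without KO library 2 it was -0.35 and passed the threshold (edgeR, adjusted p = 0.0129), while Klf2 at -0.21 did not (edgeR, adjusted p = 0.0761). Without KO library 1 the values moved the other way, to -0.14 for Klf4 and -0.055 for Klf2 (edgeR, adjusted p = 0.385 and 0.717).

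KO library 2 stood above the other KO libraries for Klf2, Klf4 and Klf10. On the log2 FPKM scale, its distance from the mean of KO libraries 1 and 3 was 0.30 for Klf2, 0.38 for Klf4 and 0.15 for Klf10. For the other 5 members it was from -0.069 to 0.037. Of all tested genes, 95.6% had a smaller value than Klf2 and 97.3% a smaller one than Klf4. Col1a1 was also highest among KO libraries in library 2, at 429.7, 499 and 451 FPKM in KO libraries 1 to 3. Among macrophage genes, Csf1r (380, 397 and 366 FPKM), Cd68 (872, 934 and 843 FPKM) and Lyz2 (16555, 16733 and 16655 FPKM) were also highest in KO library 2. Adgre1 and Mertk, also macrophage genes, were highest in KO library 3. The 12 genes of the stromal, endothelial and osteoblast list summed to 979 to 1077 FPKM in WT and 1001 to 1118 FPKM in KO, and none of them was at 0 in all libraries. Endothelial genes went different ways over KO libraries 1 to 3. Cdh5 was lowest in library 2, at 0.708, 0.421 and 0.527 FPKM, Kdr was between the others there, at 0.464, 0.418 and 0.325 FPKM, and Pecam1 was highest there, at 0.273, 0.311 and 0.254 FPKM. In WT these 3 genes had means of 1.12, 0.569 and 0.577 FPKM, against 0.552, 0.402 and 0.279 FPKM in KO. The part of such cells in the levels of Klf2 and Klf4 was not tested.

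**Figure D2:**
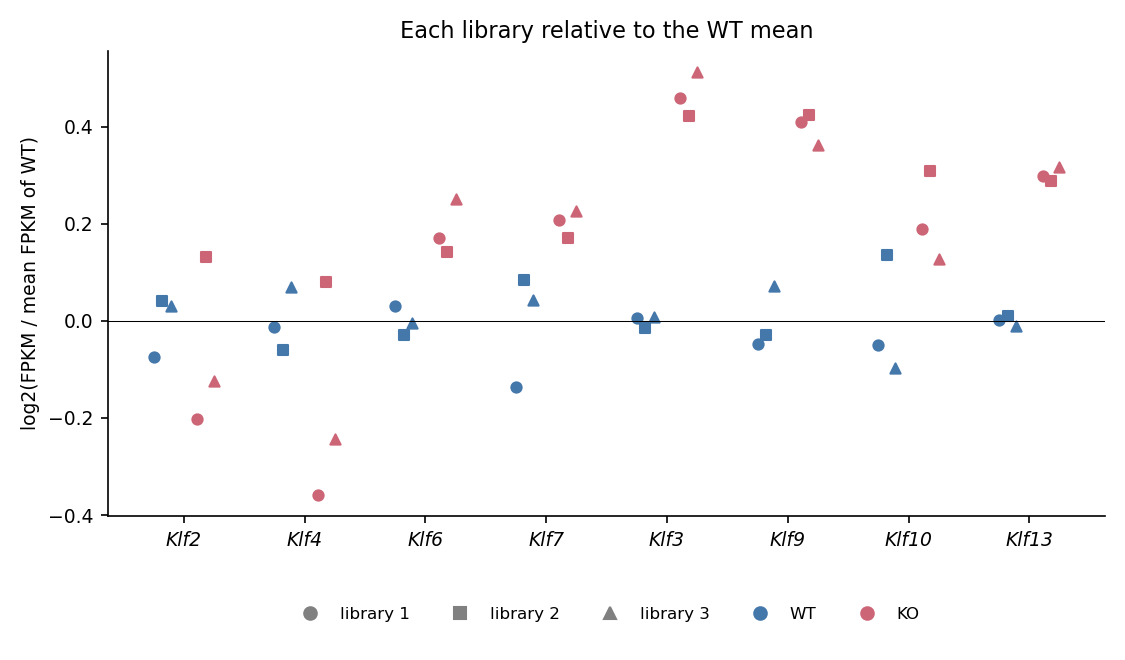
Log2 of the FPKM of each library over the WT mean (vertical axis) for the 8 Klf genes, with 1 point per library, coloured by genotype and shaped by library number. KO library 2 stands 0.30 above the mean of the other KO libraries for Klf2 and 0.38 above it for Klf4.

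The order of levels, compared per length in FPKM, differed among the lower members. In WT the order was Klf6, Klf13, Klf3, Klf2, Klf4, Klf10, Klf7 and Klf9, with means of 43.8, 12.3, 9.998, 8.89, 4.86, 4.52, 4.12 and 3.16 FPKM. The ranges of Klf4 and Klf10, and of Klf10 and Klf7, overlapped over the 3 WT libraries, and those of the other neighbours did not. In KO the first 4 kept their places at means of 49.9, 15.2, 13.8 and 8.54 FPKM. They were followed by Klf10 at 5.23, Klf7 at 4.74, Klf4 at 4.34 and Klf9 at 4.17 FPKM. Klf4 overlapped with both Klf7 and Klf9 in KO, whereas every WT library of Klf4 was above every WT library of Klf7 and Klf9. Klf6 was above 92.9% of tested genes by its mean level, Klf13 above 73.3% and Klf9 above 32.2%.

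Together the 8 members made up nearly all Klf RNA by FPKM. The FPKM of all 15 Klf genes of the table summed to 98.1 ± 0.692 in WT and 114 ± 2.19 in KO, and the 8 members took 93.5 ± 0.579% and 93.04 ± 0.392% of it (SD, n = 3). Klf6 alone took 44.7 ± 1.203% in WT and 43.9 ± 1.53% in KO. The share of Klf3 was 10.2 ± 0.131% in WT and 12.1 ± 0.375% in KO, without overlap. The shares of Klf9 and Klf13 were also higher in KO without overlap, at 3.23 ± 0.131% and 3.67 ± 0.131% for Klf9 and 12.5 ± 0.133% and 13.3 ± 0.239% for Klf13. The shares of Klf2 and Klf4 were lower in KO without overlap, at 9.06 ± 0.336% and 7.499 ± 0.8697% for Klf2 and 4.96 ± 0.2204% and 3.81 ± 0.583% for Klf4. The FPKM of Klf2 and Klf4 overlapped between the genotypes, while the sum that divides it rose. The FPKM of Klf3 was 1.19, 1.08 and 1.11 times that of Klf2 in WT libraries 1 to 3 and 1.78, 1.38 and 1.75 times in KO libraries 1 to 3. The ratio of Klf6 to its closest relative Klf7 was 10.7 ± 1.11 in WT and 10.5 ± 0.254 in KO, and that of Klf2 to Klf4 1.83 ± 0.115 in WT and 1.97 ± 0.0712 in KO, both with overlap. These shares and ratios carry no test.

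The 4 members that rose had longer transcripts than the 2 with lower means, and transcript length goes with the fold change over the whole table. In 10 classes of transcript length, the median log2 fold change of tested genes went from -0.32 in the shortest (38 to 966 bp) to 0.20 in the longest (6575 to 40378 bp). Klf3 (5221 bp), Klf13 (6396 bp), Klf9 (4486 bp) and Klf6 (4225 bp) were longer than 81.6%, 89.1%, 73.02% and 68.8% of tested genes. Klf2 (1847 bp) was longer than 24.02%, and Klf4 (3029 bp) and Klf10 (3044 bp) were longer than 47.5% and 47.8%. Klf7 (7662 bp), the longest member, was longer than 94.2% and was not called. With the length and GC offset, 3 of the 8 members were higher and 0 lower, against 16.7% and 14.8% of tested genes. The members' median log2 fold change was then 0.094, and that of all tested genes was 0.011. With the offset for length alone, 4 of the 8 members were higher and 0 lower. Of the 11636 tested genes, 2021 were higher and 1808 lower in that fit. For 5 of the 8 members, all KO libraries were above all WT libraries in FPKM, against 32.4% of tested genes, and for 0 of the 8 all were below, against 19.1%.

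**Figure D3:**
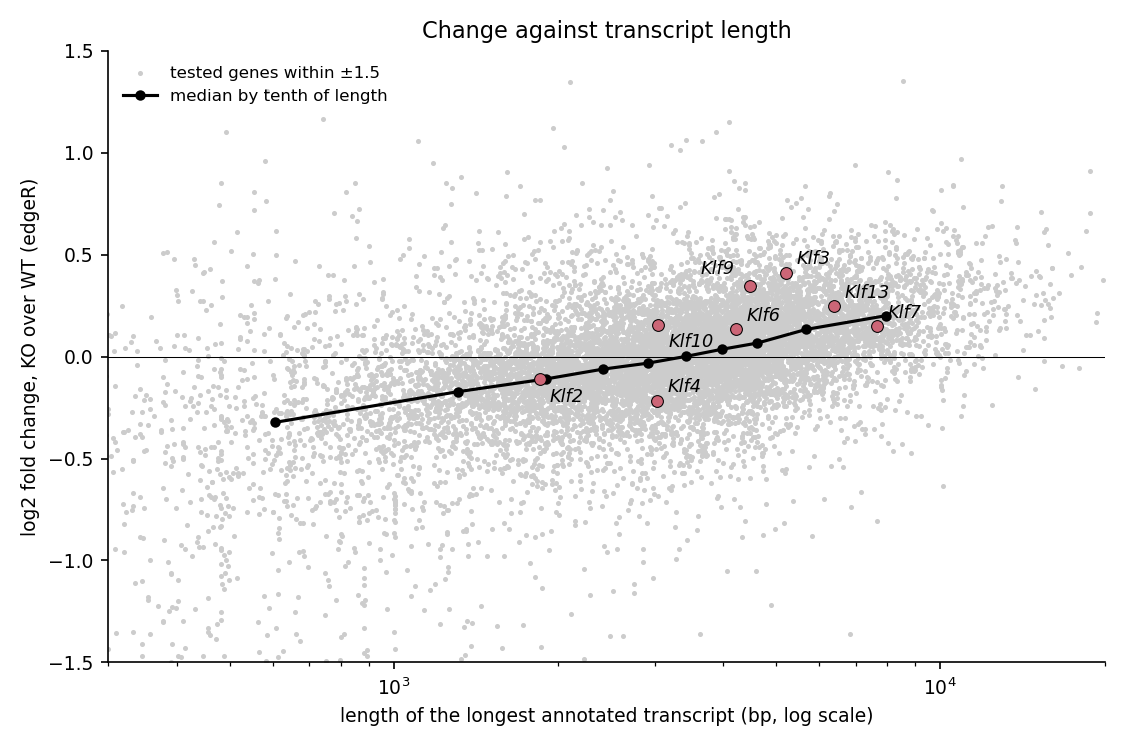
Log2 fold change, KO over WT (vertical axis), against the length of the longest annotated transcript in bp (horizontal log axis), with tested genes inside the plotted range in grey, the 8 Klf genes in red and the median of each of 10 length classes in black. The median goes from -0.32 to 0.20 with length. Klf3 at 0.41, Klf9 at 0.34, Klf13 at 0.25, Klf10 at 0.16 and Klf6 at 0.14 stand above the median of their class. Klf2, Klf4 and Klf7 do not.

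The DNA just upstream of 4 members is shown because Klf3, Klf9 and Klf13 kept their calls in every alternative that tested them, while Klf2 gained none. Klf7 and Klf10 also gained none and are not shown. Sequences are from RefSeq (GRCm38.p6), which had an entry for 7 of the 8 members and none for Klf10. Each stretch ends before the annotated start of the gene. Capitals mark CACCC, the box that Klf proteins bind, on either strand, and in Klf2 alone the core of the Mef2 site (CTA and TAG with any 4 bases between them). Mef2 factors are known to induce Klf2.
Klf3, chr5:64803271-64803387, plus strand: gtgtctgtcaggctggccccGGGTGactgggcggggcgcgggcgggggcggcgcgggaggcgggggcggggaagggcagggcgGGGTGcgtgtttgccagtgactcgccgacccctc
Klf9, chr19:23140976-23141225, plus strand: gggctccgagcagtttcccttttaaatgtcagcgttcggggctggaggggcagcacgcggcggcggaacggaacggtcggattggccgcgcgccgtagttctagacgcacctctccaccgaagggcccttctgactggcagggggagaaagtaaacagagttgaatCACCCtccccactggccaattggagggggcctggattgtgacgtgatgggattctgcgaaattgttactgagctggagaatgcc
Klf13, chr7:63938916-63939165, minus strand: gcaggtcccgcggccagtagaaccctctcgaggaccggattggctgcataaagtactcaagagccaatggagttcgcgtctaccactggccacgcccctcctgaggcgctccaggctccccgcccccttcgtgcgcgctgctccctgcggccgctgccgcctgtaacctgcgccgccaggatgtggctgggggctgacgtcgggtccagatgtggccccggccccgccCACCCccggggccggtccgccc
Klf2, chr8:72318812-72319032, plus strand: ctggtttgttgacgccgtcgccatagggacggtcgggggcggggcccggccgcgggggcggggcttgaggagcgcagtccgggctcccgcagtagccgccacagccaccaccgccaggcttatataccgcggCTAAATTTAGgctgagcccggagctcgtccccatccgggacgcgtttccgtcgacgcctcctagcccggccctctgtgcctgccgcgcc
The stretch of Klf3 (117 bases) held 2 CACCC boxes, those of Klf9 and Klf13 (250 bases each) held 1 each and that of Klf2 (221 bases) held 0. Of the stretches not shown, that of Klf7 (148 bases) held 3, the most of the 7. Those of Klf4 (250 bases) and Klf6 (243 bases) held 0. Over 32851 RefSeq promoters, 28.4%, 52.01% and 47.97% held at least 1 in a stretch of 117, 250 and 221 bases. The shares were 34.8% and 51.1% in 148 and 243 bases. Each stretch was counted from the far end of the 250 bases upstream of the RefSeq start, as for the members. The RefSeq start of Klf3 lies 133 bases inside the gene as deposited. Shares for 117 bases are thus not those of the bases next to a RefSeq start. GC boxes, written GGGCGG on either strand, numbered 5 in Klf3, 3 in Klf13, 2 in Klf2 and 0 in Klf9, and 1 of those in Klf3 and 1 of those in Klf13 overlapped a CACCC box. Klf4 held 4 GC boxes, and Klf6 and Klf7 held 1 each. Of the promoters, 12.4%, 32.7% and 28.7% held a GC box in 117, 250 and 221 bases counted in the same way. In 148 and 243 bases, 16.4% and 31.8% did. The Mef2 core was found 1 time in Klf2, where 2.86% of promoters hold it, and 0 times in the other 6 members searched. CACGTG was found 1 time each in Klf4 and Klf6, where 6.02% and 5.79% of promoters hold it, and TGACGTCA and TATAAA in none of the 7. A match of letters does not show binding.

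Beyond the 8 members, the relatives that rose were Sp genes, whose proteins share the fingers. The table held 7 other Klf genes and 8 Sp genes, and 7 of these 15 passed the filter. Of the 7 tested, 3 rose and 0 fell (median log2 fold change 0.21), against 20.3% and 19.4% of all tested genes. Sp1, a ubiquitous activator that binds GC boxes, rose from 13.3 ± 0.212 to 17.95 ± 0.322 FPKM, a log2 fold change of 0.38 (edgeR, adjusted p = 2.69e-05). Sp3 rose 1.16-fold, from 15.9 ± 0.592 to 19.2 ± 0.847 FPKM, and Sp4 1.41-fold, from 1.37 ± 0.0854 to 2.01 ± 0.508 FPKM (edgeR, adjusted p = 0.00322 and 0.0243). Sp3 overlaps the antisense gene Sp3os, at 0.837 FPKM. With the length and GC offset Sp1 alone of these 3 remained past the threshold, at a log2 fold change of 0.14 (edgeR, adjusted p = 0.0125). Klf16 was at 4.004 ± 0.657 FPKM in WT and 4.98 ± 0.376 FPKM in KO, and Klf11, which TGF-beta also induces, at 1.17 ± 0.151 FPKM in WT and 1.27 ± 0.183 FPKM in KO. Sp2 was at 6.64, 5.72 and 5.83 FPKM in WT libraries 1 to 3 and 5.96, 6.37 and 6.13 FPKM in KO libraries 1 to 3. Sp7, the osteoblast factor osterix, was at 5.09 ± 0.191 FPKM in WT and 5.04 ± 0.3297 FPKM in KO. None of these 4 passed the test. Below the filter, Klf15 was at 0.625, 0.374 and 0.576 FPKM in WT libraries 1 to 3 and 0.8699, 0.8598 and 0.875 FPKM in KO libraries 1 to 3, and did not pass in a fit without the filter (edgeR, adjusted p = 0.0779). The other 7 genes below the filter had means of at most 0.538 FPKM in either genotype, among them the erythroid factor Klf1, whose count never passed 5.

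**Figure D4:**
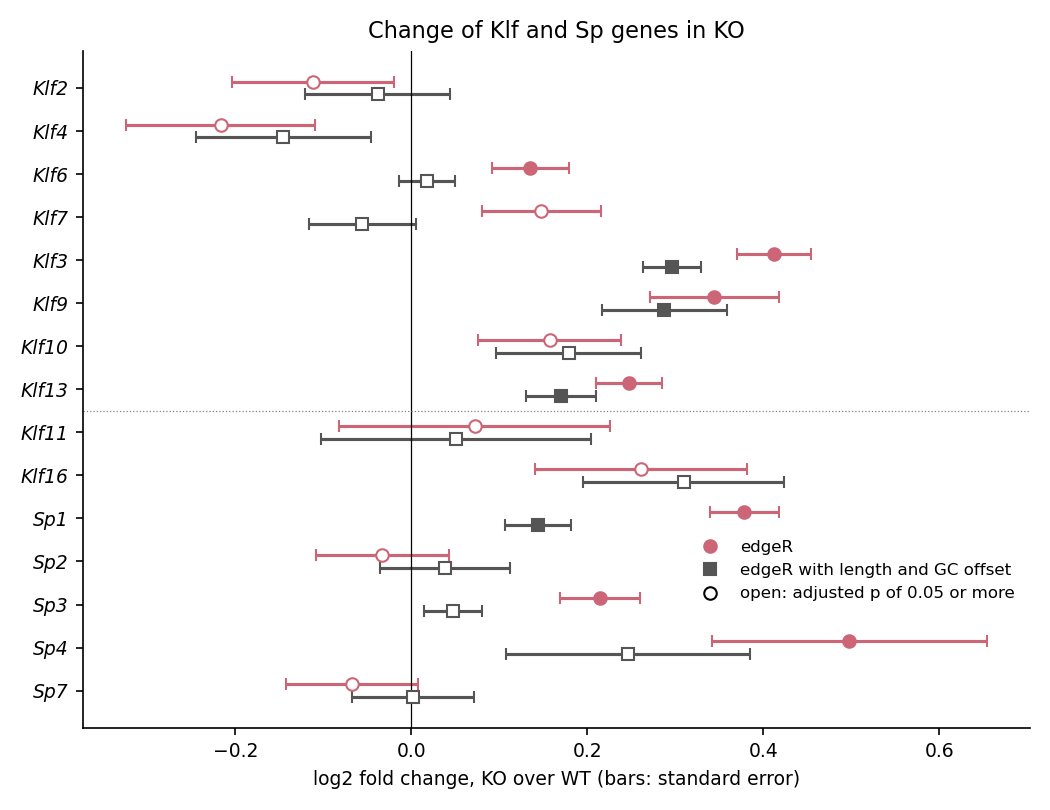
Log2 fold change, KO over WT (horizontal axis), of the 8 Klf genes (above the dotted line) and the 7 other tested Klf and Sp genes, without (circles) and with (squares) the length and GC offset, with standard errors as bars and open symbols where the adjusted p is 0.05 or more. Klf3, Klf9, Klf13 and Sp1 are filled with both fits, and Klf6, Sp3 and Sp4 without the offset only.

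Genes that act around the members were described by list. For every list here and below, the shares over all tested genes were 20.3% higher and 19.4% lower. With the length and GC offset they were 16.7% and 14.8%. ERK5 (Mapk7) and its kinases activate Mef2 factors, which induce Klf2 and Klf4, and Foxo factors induce Klf2. Of 10 tested genes of this list, 5 rose and 0 fell (median log2 fold change 0.16), and 4 and 0 with the length and GC offset. Mapk7 itself had a lower mean in KO, at 9.38 ± 0.411 FPKM in WT and 8.85 ± 0.289 FPKM in KO. Map2k5 was lower in every KO library than in every WT library, with means of 9.13 and 8.65 FPKM. Neither passed the test (edgeR, adjusted p = 0.0666 and 0.105). Mef2c rose 1.75-fold, from 4.75 ± 0.2200 to 8.62 ± 0.618 FPKM, the kinase gene Map3k2 1.49-fold, from 4.36 ± 0.138 to 6.73 ± 0.492 FPKM, and Foxo3 1.25-fold, from 20.1 ± 0.744 to 26.1 ± 0.432 FPKM (edgeR, adjusted p = 1.93e-06, 1.58e-05 and 0.000161). Of 10 ubiquitin ligases that act on Klf proteins, 4 rose and 0 fell (median log2 fold change 0.17), and 4 and 0 with the offset. Wwp1, which marks Klf2 for breakdown, rose 1.47-fold, from 90.8 ± 2.88 to 139 ± 7.97 FPKM, Fbxo32 1.495-fold and Itch 1.21-fold (edgeR, adjusted p = 6.17e-06, 0.000221 and 0.00139). With the offset Itch did not pass (edgeR, adjusted p = 0.0754).

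Of 16 cofactors that bind Klf proteins, 7 rose and 3 fell (median log2 fold change -0.033), and 4 and 1 with the offset. The CtBP genes Ctbp1 and Ctbp2 did not pass (edgeR, adjusted p = 0.135 and 0.348). Sin3a rose 1.15-fold (edgeR, adjusted p = 0.00731) but did not pass with the offset (edgeR, adjusted p = 0.0587). Those that fell were Sin3b, Hdac1 and Wdr5, of which Sin3b alone passed with the offset. The histone acetylase genes Crebbp and Kat2b rose 1.41-fold and 1.37-fold, from 3.69 ± 0.127 to 5.41 ± 0.407 FPKM and from 8.43 ± 0.347 to 11.95 ± 0.673 FPKM, and Zfp217 rose 1.15-fold (edgeR, adjusted p = 4.09e-05, 9.59e-05 and 0.00448). Of 13 genes of the TGF-beta pathway around Klf10, 4 rose and 0 fell (median log2 fold change 0.10). With the offset 3 rose and 2 fell, beside 16.7% and 14.8% of all tested genes. The receptor gene Tgfbr1 rose from 19.98 ± 0.622 to 25.3 ± 0.805 FPKM, Smurf2, which is also among the ligases, 1.17-fold and Smad2 1.12-fold (edgeR, adjusted p = 0.000503, 0.00169 and 0.0279). With the offset Tgfbr1 and Smad2 did not pass (edgeR, adjusted p = 0.234 and 0.488).

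Of 12 tested glucocorticoid-linked genes listed around Klf9, 2 rose and 7 fell (median log2 fold change -0.28), and 2 and 5 with the offset, where the median was 0.0029. All tested genes gave 20.3% higher and 19.4% lower, and 16.7% and 14.8% with the offset. The receptor gene Nr3c1 rose 1.33-fold, from 14.4 ± 0.793 to 19.9 ± 0.655 FPKM. Ddit4, an inhibitor of mTOR signalling, fell 1.58-fold, from 14.6 ± 0.4998 to 9.57 ± 0.317 FPKM, and Errfi1 1.25-fold (edgeR, adjusted p = 7.06e-05, 2.43e-05 and 0.000174). Of 19 immediate early genes, a class near which Klf2, Klf4, Klf6 and Klf10 are often placed, 3 rose and 9 fell (median log2 fold change -0.14), and 3 and 6 with the offset. Jund rose 1.35-fold, from 30.9 ± 0.424 to 43.2 ± 2.96 FPKM, and Junb and Fos fell 1.33-fold and 1.53-fold, Fos from 5.04 ± 0.301 to 3.42 ± 0.342 FPKM (edgeR, adjusted p = 5.83e-05, 7.04e-05 and 0.000788).

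Among genes named as targets of the members, calls went both ways. All tested genes gave 20.3% higher and 19.4% lower, and 16.7% and 14.8% with the offset. Of 11 tested targets of Klf2 and Klf4, 3 rose and 4 fell (median log2 fold change 0.018), and 4 and 3 with the offset. Mrc1, which encodes the mannose receptor, rose 1.47-fold, from 413 ± 15.7 to 631 ± 17.4 FPKM, and the BMP receptor gene Bmpr2 1.695-fold, while Chil3 fell 9.22-fold (edgeR, adjusted p = 1.01e-06, 2.22e-06 and 3.74e-06). Chil3 stood at 3.13 ± 0.51 FPKM in WT and 0.347 ± 0.11 FPKM in KO. It is also among the monocyte genes, and Mrc1 and others of these targets are among the macrophage genes. Of 9 tested inflammatory genes that Klf2 is known to hold down, 0 rose and 5 fell (median log2 fold change -0.37), and 0 and 6 with the offset. The chemokine gene Ccl2 fell 1.79-fold, from 18.6 ± 1.998 to 10.8 ± 1.22 FPKM, and the cytokine gene Tnf fell from 4.08 ± 0.293 to 2.49 ± 0.299 FPKM (edgeR, adjusted p = 0.000118 and 0.00112). Of 8 tested targets of Klf3, Klf6, Klf7 and Klf13, 1 rose and 7 fell (median log2 fold change -0.24), and 0 and 5 with the offset. Tgfbr1 rose and Ccl5 fell, as given above, and Plaur, the urokinase receptor gene, fell from 10.4 ± 0.567 to 6.69 ± 1.14 FPKM (edgeR, adjusted p = 0.0004297). Of 3 tested zinc finger factors of the Egr, Wt1, Gli and Zic kind, 1 rose and 1 fell (median log2 fold change 0.12), and 0 and 1 with the offset. Glis3 rose 1.14-fold and Glis2 fell 1.201-fold (edgeR, adjusted p = 0.0139 and 0.0289), with Gli3 at 1.44 ± 0.0662 FPKM in WT and 1.63 ± 0.0787 FPKM in KO.

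Marker genes of other cells differed between the genotypes as well. All tested genes gave 20.3% higher and 19.4% lower, and 16.7% and 14.8% with the length and GC offset. By the same edgeR test, with the counts under the length and GC offset in brackets, of 10 neutrophil genes 0 rose and 9 fell (0 and 9 with the offset), and the 15 genes of that list summed to 102 to 190.5 FPKM in WT and 20.5 to 22.4 FPKM in KO. Likewise of 7 monocyte genes 1 rose and 5 fell (1 and 6 with the offset), with sums of 394 to 464 FPKM in WT and 380.4 to 437 FPKM in KO. For the remaining lists, of 12 macrophage genes 3 rose and 7 fell (4 and 2 with the offset), of 6 osteoclast genes 4 rose and 2 fell (4 and 2 with the offset), of 3 B cell genes 2 rose and 1 fell (2 and 1 with the offset), of 2 T and NK cell genes 1 rose and 0 fell (0 and 0 with the offset) and of 2 dendritic cell genes 1 rose and 0 fell (1 and 0 with the offset). In addition, of 2 erythroid and megakaryocyte genes 1 rose and 1 fell (1 and 1 with the offset), of 6 stromal, endothelial and osteoblast genes 1 rose and 1 fell (1 and 3 with the offset), and the 1 tested mast cell and basophil gene did not pass. The part of these cells in the levels of the Klf genes was not tested.

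The genes most like the members that rose were sought over the 6 libraries. Likeness was the root mean square difference of log2 CPM, each gene centred on its own mean, over 10174 named protein-coding genes. The nearest to Klf3 were Foxn2 (0.0142), at 4.43 ± 0.0595 FPKM in WT and 6.02 ± 0.168 FPKM in KO, and Stag2 (0.0177), a cohesin subunit gene. Nearest to Klf13 were Ptgr2 (0.0107) and Rubcn (0.0111), and nearest to Klf9 were Rhobtb1 (0.0125) and Pik3r6 (0.02104). Klf6 had Ocrl (0.00674) and Nhlrc3 (0.0115) as its nearest. With 6 libraries in 2 genotypes, such distances are a description.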

How the data were processed

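RNA was measured in 6 libraries, 3 per genotype as labelled. Per the labels' protocols, poly(A) RNA was selected and second strands were marked with dUTP. The submitters' processing notes name cutadapt 1.9, HISAT2 2.0.4 and StringTie 1.3.4d, with no role or order; genome build and the use of strand in counting are not given in the sources used here. The deposited table held FPKM and a whole-number estimated count per gene and library, both made by the authors. A count of 4 was found 5769 times, against 3204 for 3 and 2041 for 5, so about 4 counts stood for 1 fragment. IDs matched GENCODE M21 (GRCm38) for 27382 of 27458 genes, 24695 with identical coordinates. Gene coordinates are as deposited.

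The main test was edgeR 4.0.16 (quasi-likelihood, TMM scaling, two-sided) in R 4.3.3, run on estimated counts of the 11636 genes whose mean FPKM reached 1, with Benjamini-Hochberg adjustment at 0.05. It was tested on simulated data. Standard errors were worked back from log2 fold change and F. The length and GC offset was a loess trend per library (span 0.3) on the longest annotated transcript. Alternatives were limma 3.58.1 on log2(FPKM + 1, 0.5 or 0.1), DESeq2 1.42.0, other scalings and filters, robust spread, counts divided by 4, a replicate block, a length offset and leaving out each library. Other copies were sought with minimap2 2.31.

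The 8 members and the lists were chosen with earlier results of these data known. Named genes are the members, the other tested Klf and Sp genes, Pebp1 and the 3 genes of each pathway list with the smallest p. Also named are the 2 genes nearest in pattern to each member called. Csf1r, Cd68, Lyz2, Col1a1, Cdh5, Kdr, Pecam1, Ly6g, Klf1 and Klf15 were added after their values were seen. So were Adgre1, Mertk, Mapk7, Map2k5, Ctbp1, Ctbp2, Sin3a, Sin3b, Hdac1 and Wdr5. A gene that the rule names is not reported here. Within a genotype, pairs of libraries gave chi-square values of 4.08 to 8.77 per degree of freedom on counts divided by 4, so all pairs differed by more than counting error. The labels do not say that libraries came from separate animals, so p-values measure the spread between libraries, which may be technical.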

Additional observations from a re-analysis of the deposited data

How the results depend on the processing

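Klf3 and Klf13 kept their calls in all 19 alternatives, with log2 fold changes of 0.24 to 0.46 and 0.15 to 0.30, and Klf9 in all 18 that tested it (0.29 to 0.39). The call of Klf6 was lost in 6 of 19, and Klf4 gained one in 1 of 18, without KO library 2. The sign turned for Klf2 with the length offset (log2 fold change 0.044, edgeR, adjusted p = 0.758) and for Klf7 with the length and GC offset (-0.056, edgeR, adjusted p = 0.523). The causes were not tested. Klf4, Klf7, Klf9 and Klf10 were below a filter of 5 FPKM. Leaving out 1 library at a time gave 3 to 4 members higher and 0 to 1 lower. Of all genes called, 51.2% were higher in KO by edgeR, 62.8% with limma on log2(FPKM + 1) (2770 higher, 1639 lower) and 39.9% with upper-quartile scaling (1913 higher, 2880 lower). With the replicate number as a block, 4 members were higher and 0 lower, and 2407 genes were higher and 2294 lower against 2364 and 2253. Same-numbered deviations correlated at 0.023, 0.19 and -0.038, and not every library correlated best with its own number, so the numbers were not taken to pair the libraries.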
